A study of Mus musculus with 4 samples.

Results

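Cluster 41, which the authors' deposited annotation names Ryr1/Tfap2b, is a group of inhibitory neurons of the mouse posterior hindbrain. Its members are the nuclei that passed the authors' quality filter and carry that cluster number, 168 of 12539 neurons and of 39461 nuclei kept in all. They made up 1.34% of neurons (exact 95% interval 1.15 to 1.56%, counting error only). The study sequenced single nuclei of the dorsal vagal region to look for neurons that respond to switching AgRP neurons on and POMC neurons off at once. Both groups consisted of adult C57BL/6 mice of either sex, 12 to 20 weeks old, that received CNO at 3 mg per kg intraperitoneally and had no food for the 1 h before the tissue was taken. CNO is the ligand of the designer receptors hM3DGq, which excites neurons, and hM4DGi, which inhibits them. AgRP-Gq;POMC-Gi mice were AgRP-IRES-Cre+/-;hM3DGqfl/-;POMC-Dre+/-;hM4DGifl/-, so that the recombinases Cre and Dre, driven by *Agrp* and *Pomc*, switch on the receptors. Control mice, labelled WT, came from the same cross with both receptor alleles and neither recombinase, AgRP-IRES-Cre-/-;hM3DGqfl/-;POMC-Dre-/-;hM4DGifl/-. Each group has 2 libraries, made from tissue pooled within the condition. Whether the 2 libraries of a group hold separate mice is not stated, so the p-values below measure the spread between libraries, which may be technical in part. The 2 AgRP-Gq;POMC-Gi libraries do not look like repeats of 1 pool, since *Xist*, which female cells express, was at 537 and 15.9 UMIs per 1000000 in their neurons outside the cluster.

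*Ryr1* encodes the ryanodine receptor best known from skeletal muscle, a channel of the endoplasmic reticulum that releases stored calcium into the cytosol. *Tfap2b* encodes a transcription factor of the AP-2 family, which takes part in the specification of inhibitory neurons in the cerebellum, hindbrain and retina. Inhibitory neurons of the hindbrain release GABA, made by the decarboxylases *Gad1* and *Gad2*, or glycine, taken back up by the transporter *Slc6a5*, and many release both, since the vesicular transporter *Slc32a1* loads either transmitter. Immediate early genes (IEGs) such as *Fos* are transcribed within minutes of strong neuronal activity and serve as a record of it.

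Control replicates 1 and 2 held 22 and 23 cluster 41 nuclei with 198455 and 204359 UMIs in sum, and AgRP-Gq;POMC-Gi replicates 1 and 2 held 65 and 58 nuclei with 516134 and 481852 UMIs. A UMI is a molecular tag that counts 1 captured RNA molecule. The median nucleus of the cluster had 7538 UMIs and 3388 genes, against 8718 UMIs in other neurons and 2460.0 in oligodendrocytes, and no barcode was shared between libraries. Values are given in the order control 1, control 2, AgRP-Gq;POMC-Gi 1, AgRP-Gq;POMC-Gi 2, as UMIs of a gene per 1000000 UMIs of the summed nuclei of a library (CPM), with mean ± SD over the 4 libraries. Differences from other neurons are mean log2 ratios of (CPM + 5). Because clusters were built from expression, these differences are descriptions and carry no test. Of the 11562 genes seen in 5% or more of the cluster's nuclei, 18.4% were higher than in other neurons in all 4 libraries and 10.8% were lower, with a median log2 ratio of 0.04. The libraries stood apart in a pair of genes. *Xist*, transcribed from the inactive X chromosome, had 199, 71, 418 and 21 UMIs in the cluster, so AgRP-Gq;POMC-Gi replicate 2 was far lower than the other 3 (43.6 CPM against 347 to 1003). *Ttr*, an abundant transcript of the choroid plexus, had 0, 280, 3 and 307 UMIs, so that replicates numbered 2 carried it in both groups, and other neurons showed the same pattern (1.5, 1000.4, 7.56 and 579.5 CPM).

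The genes in the name of the cluster were high in it, which the naming itself fixed. *Ryr1* was at 65.5, 88.1, 81.4 and 118 CPM (88.3 ± 22.1) against 6.89 CPM in other neurons, a log2 ratio of 2.95 ± 0.29, and every library of the cluster lay above every library of other neurons (at most 8.33 CPM). *Tfap2b* was at 202, 122, 172 and 164 CPM (165 ± 32.7) against 22.4 CPM in other neurons, a log2 ratio of 2.63 ± 0.47. A *Ryr1* UMI was found in 52.4% of cluster 41 nuclei, in 5.55% of other neurons and in 0.0654% of oligodendrocytes. For *Tfap2b* these shares were 51.2%, 9.30% and 0.178%. After every nucleus was thinned to 2000 UMIs, which left out 4 cluster 41 nuclei and 162 other neurons, they were 22.6% against 1.76% for *Ryr1* and 22% against 4.06% for *Tfap2b*. Both genes were seen in 47 nuclei, *Ryr1* alone in 41, *Tfap2b* alone in 39 and neither in 41. Each of the 4 libraries contained all 4 outcomes. A gene can go unseen in a nucleus that expresses it, so these counts do not mark subtypes. Whether the 2 genes coincide was not tested.

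**Figure D1:**
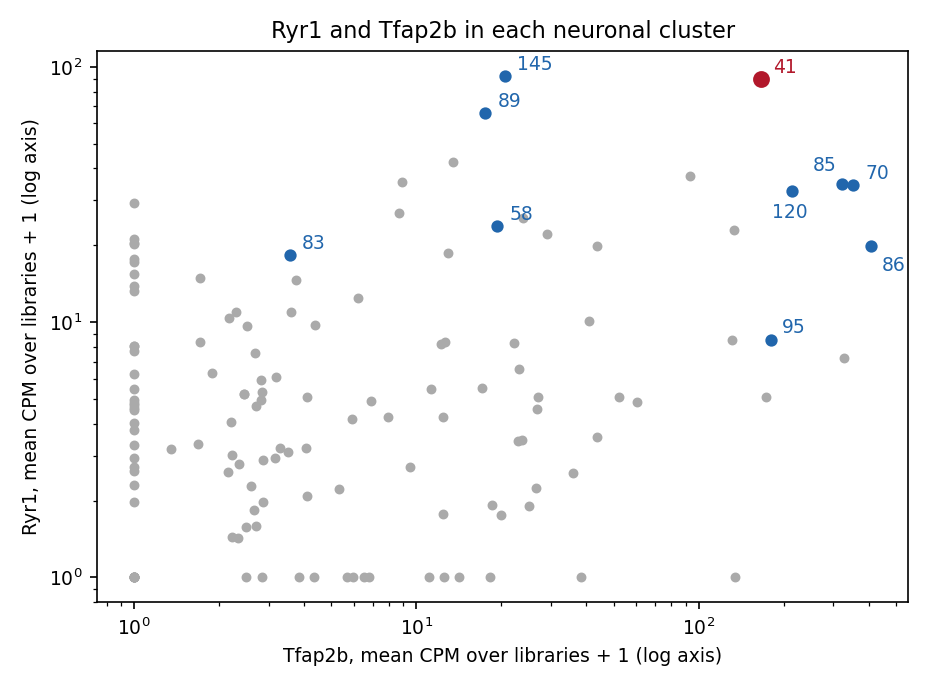
Mean CPM of *Tfap2b* (horizontal) and *Ryr1* (vertical), each plus 1 on log axes, in every neuronal cluster, with 1 point per cluster. Cluster 41 is red (165 and 88.3 CPM), and some of the clusters named in the text are blue with their numbers. Clusters 70, 85 and 120 lie further right (352, 321 and 214 CPM of *Tfap2b*) and lower (33.5, 33.8 and 31.6 CPM of *Ryr1*).

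Each gene alone was as high or higher in other neuronal clusters. For *Ryr1* cluster 41 was second of 134 neuronal clusters. Cluster 145, Col12a1/Tnc, was at 91.2 ± 54.6 CPM, which did not differ from cluster 41 beyond the spread between libraries, and cluster 89, Necab1/Arhgap15, was at 65.0 ± 15.4 CPM. For *Tfap2b* cluster 41 was eighth, below cluster 86, Tfap2b/Col25a1 (408 ± 78.4 CPM), cluster 70, Tfap2b/Cntnap5b (352 ± 116 CPM), cluster 126 (326 ± 56.8 CPM) and cluster 85 (321 ± 62.7 CPM). Clusters 120, 95 and 154, at 214 ± 21.8, 180.0 ± 41.6 and 173 ± 86.3 CPM, were its nearest neighbours above, and of these 95 and 154 lay within 1 SD of it. At least 50% of the cluster 41 level was reached by 3 clusters for *Ryr1* and by 12 for *Tfap2b*, cluster 41 included. Cluster 41 alone reached it for both at this limit, which follows in part from its naming, while clusters 70, 85 and 120, with more *Tfap2b*, had *Ryr1* at 33.5, 33.8 and 31.6 CPM. *Ryr1* lies on chromosome 7 (GRCm38, 29003344 to 29125179, minus strand) and *Tfap2b* on chromosome 1 (19208914 to 19238576, plus strand).

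The cells were inhibitory by their transmitter genes, with genes of both GABA and glycine release. *Gad2* was at 217, 269, 341 and 245 CPM (268 ± 53.2) against 93.4 in other neurons, and *Gad1* at 111, 152, 124 and 125 CPM (128 ± 17.2) against 49.8. The vesicular transporter *Slc32a1* was at 40.3, 44.0, 40.7 and 51.9 CPM (44.2 ± 5.37) against 26.9. The glycine transporter *Slc6a5* was at 171, 108, 96.9 and 122 CPM (125 ± 32.9) against 82.8. All 4 genes were higher than in other neurons in each library, whereas *Slc6a9*, the glial type of glycine transporter, was at 16.2 ± 6.14 CPM against 13.7 and higher in 2. *Gad2* was seen in 78.6% of nuclei and *Slc6a5* in 56.0%, against 3.03% and 1.39% of oligodendrocytes. Both were found in 75 nuclei, *Gad2* alone in 57, *Slc6a5* alone in 19 and neither in 17. Of the vesicular glutamate transporters, *Slc17a6* was at 10.1, 4.89, 13.6 and 14.5 CPM against 76.7 in other neurons, with a UMI in 8.33% of nuclei against 3.49% of oligodendrocytes. 12 of these 14 nuclei also had a *Gad2* UMI. *Slc17a7* and *Slc17a8* had no UMI in 168 nuclei, which allows up to 1.79% of nuclei with a UMI. Such limits concern nuclei with a UMI and not nuclei that express the gene, since even *Ryr1* was seen in 52.4%. No UMI was found either for *Th*, *Dbh* and *Tph2*, which make catecholamines and serotonin. Of 14 genes of such other transmitters 1 was detected in 5% of nuclei or more, the vesicular monoamine transporter *Slc18a2* (18.3 CPM against 23.1).

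Other cell types left little in the cluster, at levels near those in other neurons, with the oligodendrocyte genes somewhat above them in each library. The 4 neuronal genes *Rbfox3*, *Snap25*, *Syt1* and *Elavl4* summed to 2437 to 2755 CPM, against 2591 to 2669 CPM in other neurons. 6 oligodendrocyte genes summed to 307, 328, 155 and 205 CPM in the cluster and to 277, 232, 135 and 172 CPM in other neurons, so both were higher in the control libraries. 6 astrocyte genes summed to 85.7, 88.1, 56.2 and 47.7 CPM against 85.4, 60.2, 47.3 and 64.8 CPM. 4 microglial genes summed to 146, 73.4, 93.0 and 133 CPM against 137, 136, 152 and 138 CPM, most of it *P2ry12*, whose gene lies on the other strand within *Med12l*, while *Tmem119* had 1 UMI and *Csf1r* 3. The 3 genes of oligodendrocyte precursors reached 0 to 11.6 CPM and the 4 vascular genes 4.15 to 10.1 CPM.

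The genes with the largest log2 ratio to other neurons, among those seen in 25% of nuclei or more, were led by *Ryr1* and *Tfap2b* themselves. *Prkd1*, a protein kinase of the D family that diacylglycerol activates, was at 252, 191, 306 and 355 CPM (276 ± 70.6) against 40.2. *Tmem132d*, a transmembrane protein, was at 751, 680.2, 839 and 836 CPM (777 ± 76.2) against 123, and at 421 CPM in oligodendrocytes. *Skor2*, a transcriptional corepressor known from Purkinje cells, was at 60.5, 34.3, 65.9 and 33.2 CPM (48.5 ± 17.1) against 3.91 and had no UMI in any oligodendrocyte. *Erbb4*, the neuregulin receptor that many forebrain interneurons carry, was at 3769, 3504, 3991 and 3935 CPM (3799.7 ± 219) against 845, with a UMI in 96.4% of nuclei against 54.6% of other neurons. Oligodendrocytes had it too, at 1699 CPM and in 83% of nuclei. In none of these genes did a library of the cluster come near the mean of other neurons, as the plot of leading genes shows. Single neuronal clusters were higher, however. Cluster 41 ranked 4th for *Prkd1* (cluster 159 at 581 CPM) and 3rd for *Tmem132d* (cluster 49 at 1101 CPM). It ranked 5th for *Skor2* (cluster 132 at 74.7 CPM) and 5th for *Erbb4* (cluster 129 at 6088 CPM).

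**Figure D2:**
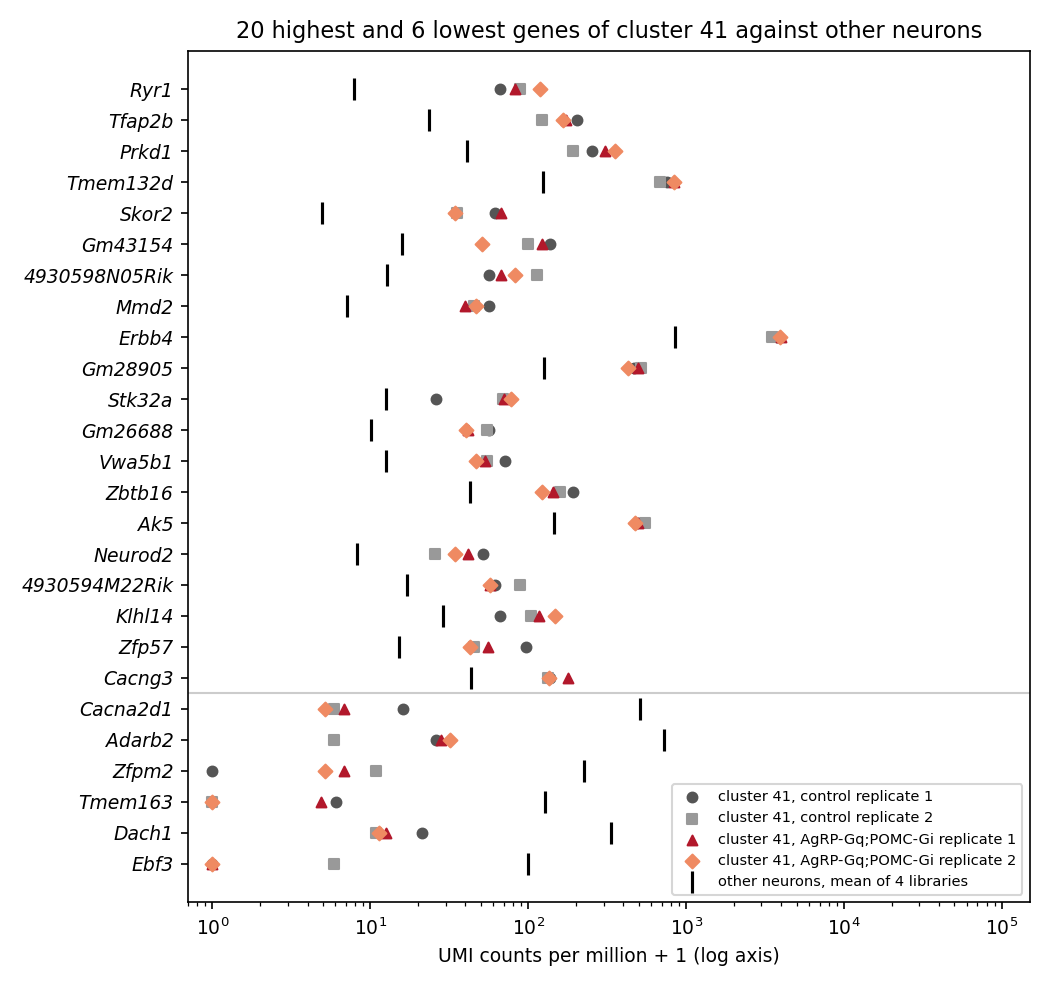
CPM plus 1 on a log axis for the 20 genes with the largest and the 6 with the lowest log2 ratio of cluster 41 to other neurons. Coloured symbols are the 4 libraries of cluster 41 and black bars the mean of other neurons. Above the grey line all symbols lie right of the bar and below it all lie left of it, with *Stk32a* the most spread over libraries among the upper genes (25.2 to 76.8 CPM).

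The rest of the 20 leading genes had log2 ratios of 1.65 to 2.34. They include *Mmd2* (46.0 ± 6.96 CPM against 6.10), *Stk32a*, a serine/threonine kinase (60.1 ± 23.5 against 11.5, with control replicate 1 lowest at 25.2), *Vwa5b1* (55.6 ± 10.6 against 11.6) and *Klhl14* (108 ± 33.9 against 28.0). Among them were 3 regulators, the zinc finger factor *Zbtb16* (153 ± 29.0 against 41.9), the proneural factor *Neurod2* (37.2 ± 11 against 7.20) and *Zfp57* (58.9 ± 25.2 against 14.1), which guards imprinted methylation in the embryo. *Zbtb16* had a UMI in 57.7% of nuclei and in 69.5% of oligodendrocytes, so this gene was not restricted to neurons. *Ak5*, a brain adenylate kinase, was at 500.0 ± 33.3 CPM against 144 and *Cacng3*, an auxiliary subunit of AMPA receptors, at 145 ± 22 against 42.6. Many of these genes were not particular to the cluster. *Neurod2* and *Cacng3* each exceeded 50% of their cluster 41 level in 26 other neuronal clusters, and *Zfp57* did so in 24. 5 of the 20 are transcripts without a named protein. *4930598N05Rik* (78.7 ± 24.9 CPM against 11.8) was higher in cluster 41 than in any other neuronal cluster, and *Gm28905* (477 ± 37.9 against 125) was second. The 2 overlap on the same strand of chromosome 10, so their reads cannot be told apart with certainty. *Gm43154* was at 101 ± 37.9 CPM, *Gm26688* at 47.3 ± 8.45 and *4930594M22Rik* at 65.2 ± 15.4, against 14.8, 9.16 and 16.0 in other neurons.

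The 6 genes with the lowest ratio to other neurons, among those seen in 25% of other neurons or more, were *Cacna2d1*, *Adarb2*, *Zfpm2*, *Tmem163*, *Dach1* and *Ebf3*. *Cacna2d1*, the calcium channel subunit that binds gabapentin, was at 15.1, 4.89, 5.81 and 4.15 CPM (7.49 ± 5.13) against 512 in other neurons, a log2 ratio of -5.45 ± 0.56, and was seen in 5.36% of nuclei against 58.7%. *Adarb2*, an RNA-binding relative of the editing enzymes, was at 22.1 ± 11.7 CPM against 722, *Zfpm2* at 4.94 ± 4.05 against 226 and the transcription factor *Dach1* at 13.0 ± 4.84 against 331. *Tmem163* had 3 UMIs, and its level in other neurons was 59.2 times as high (exact 95% counting interval 20.2 to 287). *Ebf3* had 1 UMI, and its level in other neurons was 138 times as high (24.7 to 5435).

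Of the 5 genes of the AP-2 family, 3 were seen in 5% of nuclei or more. *Tfap2a* was at 50.4, 39.1, 25.2 and 22.8 CPM (34.4 ± 12.9) against 6.09 in other neurons, and *Tfap2d* at 35.3, 19.6, 17.4 and 22.8 CPM (23.8 ± 7.98) against 1.74. For *Tfap2d* cluster 41 was second among neuronal clusters, after cluster 85 at 25.3 CPM. *Tfap2b*, *Tfap2a* and *Tfap2d* were higher than in other neurons in each library, against 18.4% of all genes, with a median log2 ratio of 2.06. Of these 3, *Tfap2b* was high through the naming of the cluster, so the naming fixed the count and the median in part. *Tfap2e* had 4 UMIs, at 4.19 ± 4.27 CPM against 3.14, and *Tfap2c* none. *Tfap2d* (chromosome 1, 19103022 to 19166346) is the neighbour of *Tfap2b*, whereas *Tfap2a* lies on chromosome 13 (40715302 to 40738376). *Tfap2b* and *Tfap2a* were seen together in 19 nuclei, *Tfap2b* and *Tfap2d* in 12.

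Genes of calcium release from the endoplasmic reticulum did not share the high level of *Ryr1*. Of 29 genes listed, *Ryr1* among them, 16 were seen in 5% of nuclei or more, and their median log2 ratio was -0.04. In all 4 libraries 2 of them (*Ryr1*, as the naming fixed, and *Fkbp1a*) were higher and 5 lower, against 18.4% and 10.8% of all genes. The other ryanodine receptors were not raised with *Ryr1*. *Ryr2* was at 484, 641, 542 and 489.8 CPM (539 ± 72.8) against 662, and *Ryr3* at 358, 347, 242 and 299 CPM (312 ± 52.9) against 431, both lower in each library. *Itpr1*, the main inositol trisphosphate receptor of neurons, was at 40.3, 4.89, 32.9 and 27.0 CPM against 52.3, with control replicate 2 lowest. *Fkbp1a*, which stabilises the closed ryanodine receptor, was at 53.3 ± 9.88 CPM against 43.9 and higher in each library by little. The reticulum pump *Atp2a2* (165 ± 16.4 CPM against 148) was higher in 2 libraries. *Stim1*, the sensor of store filling, was at 87.1 ± 9.95 CPM against 122 and *Homer2*, a scaffold of these channels, at 18.4 ± 4.15 against 35.4, both lower in each library. *Cacna1s*, the partner of *Ryr1* in skeletal muscle, had no UMI.

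Transcription factors of hindbrain lineages were more often low than high. Of 50 listed genes, 20 were detected in 5% of nuclei or more, with a median log2 ratio of -0.91. In all 4 libraries 4 of them were higher and 12 lower, against 18.4% and 10.8% of all genes. The 4 higher were *Skor2*, *Pbx3*, *Npas1* and *Meis2*. *Pbx3*, a partner of Hox proteins, was at 917, 871, 1017 and 965 CPM (943 ± 62.8) against 309.5, in 91.1% of nuclei against 60.8%. *Meis2*, of the same kind, was at 474 ± 52.8 CPM against 351, and *Npas1* at 80.6, 14.7, 27.1 and 20.8 CPM against 9.04, with control replicate 1 far above the rest. *Ebf1* was lower than in other neurons by 4.11 on the log2 scale (35.0 ± 30.5 CPM against 534), *Nfib* was at 15.3 ± 11.6 against 106, *Zfhx3* at 83.8 ± 22.6 against 489.8, *Rorb* at 11.2 ± 2.99 against 56.9, *Pax2*, a mark of many GABAergic and glycinergic lineages, at 21.1 ± 5.13 against 60.8 and *Rora* at 672 ± 159 against 1225. *Ptf1a*, *Prdm13*, *Tal1*, *Gata3*, *Atoh1* and *Lmx1b*, most of them active in precursors or single lineages, had no UMI in the cluster. Of 22 Hox genes 10 were detected, with a median log2 ratio of 0.37. In all 4 libraries 5 (*Hoxa5*, *Hoxb3*, *Hoxb4*, *Hoxb5* and *Hoxc4*) were higher and *Hoxd3* was lower, against the same 18.4% and 10.8% of all genes. *Hoxa5* was at 15.1, 39.1, 27.1 and 62.3 CPM against 12.7 and *Hoxb5* at 40.3, 39.1, 27.1 and 39.4 CPM against 18.3. In other neurons the 22 genes summed to 238, 230.3, 214 and 340.5 CPM, so AgRP-Gq;POMC-Gi replicate 2 was highest there too.

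*Skor2* and *Ryr1* are also known from Purkinje cells of the cerebellum, to which the cartwheel cells of the dorsal cochlear nucleus are akin. Of 20 genes listed for those cells 11 were detected here, with a median log2 ratio of -0.57. In all 4 libraries 4 were higher and 5 lower, against 18.4% and 10.8% of all genes. Among the higher were *Skor2*, *Sorcs3* (633 ± 133 CPM against 276) and *Slc1a6* (53.2 ± 20.1 against 32.5). *Pcp2* had no UMI, *Calb1* was at 9.17 ± 4.76 CPM against 25.0 and *Pcp4* at 33.2 ± 12.4 against 49.8. Members of this list thus went both ways, and likeness to those cells was not tested.

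Among calcium-binding proteins 10 of 13 were detected, 3 higher and 3 lower in all 4 libraries (18.4% and 10.8% of all genes), with a median log2 ratio of -0.14. *Necab1* was at 237, 249.6, 271 and 247 CPM (251 ± 14.5) against 90.8, the visinin-like protein *Vsnl1* at 438 ± 55.7 against 323 and *Hpcal1* at 51.6 ± 12.6 against 29.9. *Pvalb*, a calcium buffer of fast-spiking cells, was at 8.53 ± 3.11 against 21.2. Of 27 peptide genes 9 were detected, 2 higher and 3 lower in all 4 libraries (18.4% and 10.8% of all genes), with a median log2 ratio of -0.05. *Pnoc*, the precursor of nociceptin, was at 65.5, 14.7, 23.2 and 27.0 CPM (32.6 ± 22.5) against 5.20 in other neurons and was seen in 16.1% of nuclei against 4.05% and in 0.517% of oligodendrocytes. *Penk* (18.6 ± 7.17 CPM against 43.1), *Sst* (13.2 ± 7.62 against 30.3) and *Tac1* (10.8 ± 3.79 against 18) were lower in each library. *Pomc* had no UMI. *Agrp* was found in 46.4% of nuclei and 50.9% of other neurons (88.8 ± 31.4 against 88.0 CPM), but its gene model, on chromosome 8 from 105566698 to 105637393, overlaps 7 other genes, among them *Ctcf*, so that this value is uncertain as a measure of *Agrp*.

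Receptors for feeding signals, peptides and monoamines were detected for 23 of 53 listed genes, with a median log2 ratio of 0.28. In all 4 libraries 8 were higher and 4 lower, against 18.4% and 10.8% of all genes. *Tacr3*, the neurokinin B receptor, was at 20.2, 53.8, 52.3 and 76.8 CPM (50.8 ± 23.3) against 10.3. The mu opioid receptor *Oprm1* was at 237, 284, 194 and 235 CPM (237 ± 36.8) against 105, in 66.7% of nuclei against 41.9%. *Adra1a*, an adrenergic receptor that raises calcium, was at 85.4 ± 15.0 CPM against 42.0, the muscarinic receptor *Chrm3* at 660.3 ± 52.1 against 350.0 and *Cnr1*, the cannabinoid receptor of axon terminals, at 50.1 ± 9.57 against 28.9. *Insr* (154 ± 18.1 against 124), *Nr3c1* (59.5 ± 6.89 against 41.1) and *Htr1b* (14.1 ± 4.65 against 7.68) completed the 8. The 4 lower were *Hcrtr2* (25.0 ± 17.2 against 51.7), *Htr7* (39.5 ± 14.2 against 64.8), *Htr2c* (505 ± 56.4 against 738) and *Igf1r* (127 ± 23.7 against 154). *Lepr*, the leptin receptor, was at 5.04, 24.5, 11.6 and 2.08 CPM against 17.8, and *Mc3r*, *Mc4r*, *Gfral* and *Calcr* had no UMI.

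Receptors of GABA and glycine were detected for 18 of 21 genes, with a median log2 ratio of 0.11. In all 4 libraries 8 of them were higher and 2 lower, against 18.4% and 10.8% of all genes. The 8 higher were all GABA-A subunits, among them *Gabrg3* (1784, 1639, 1695 and 1621 CPM against 790.4) and *Gabrb1* (1366, 1292, 1265 and 1307 CPM against 621). The 2 lower were the glycine receptor subunits *Glra1* (131 ± 15.8 against 230.2) and *Glrb* (149 ± 22.6 against 182). Of 25 glutamate receptor genes 22 were detected, 8 higher and 10 lower (18.4% and 10.8% of all genes), with a median log2 ratio of -0.00. *Grm3* (455 ± 70.5 CPM against 235), *Grin2b* (964 ± 82.0 against 513), *Grin3a* (462 ± 99.4 against 248) and *Grik2* (2374 ± 383 against 1505) were the highest ratios, and *Grik1* (69.8 ± 35.0 against 363), *Grm5* (589 ± 159 against 1325) and *Grm8* (232 ± 42.5 against 494) were among the lowest. Voltage-gated and leak channels were detected for 48 of 54 genes, with a median log2 ratio of -0.22. In all 4 libraries 10 were higher and 25 lower, against the same shares of all genes. The leak channel *Kcnk2* was at 199 ± 19.2 CPM against 87.3 and *Kcnc2*, of the Kv3 family of fast-spiking cells, at 881 ± 168 against 481. *Kcnip4* was at 811, 1096, 542 and 942 CPM (848 ± 235) against 4164, *Kcnip1* at 68.5 ± 18.2 against 236 and *Kcna1* at 38.0 ± 7.65 against 130.3.

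Not all genes were spread evenly over the 168 nuclei. For each of the 6276 genes with at least 40 UMIs in the cluster, the nuclei with a UMI were compared with the number expected if its UMIs fell on nuclei by depth alone. The median ratio of found to expected was 0.956, and 5% of genes lay under 0.794. *Ryr1* was even (1.03), and so were *Gad2* (0.928) and *Slc6a5* (0.95), while *Tfap2b* was more concentrated (0.730). The most concentrated was *Pcdh11x*, a protocadherin of the X chromosome, with 169 UMIs in 32 nuclei against 100.2 expected (0.319), present in 6, 5, 10 and 11 nuclei of the libraries. *Ebf1* had 63 UMIs in 17 nuclei against 50.8 expected, *Npsr1*, the neuropeptide S receptor, 64 UMIs in 19 against 51.5, *Grik1* 101 UMIs in 28 against 72.5 and *Il1rapl2* 387 UMIs in 58 against 142. Each was found in at least 1 nucleus of every library. *Xist* (709 UMIs in 65 nuclei) follows the libraries described above. Of the IEGs, *Nr4a3* (40 UMIs in 15 nuclei, 0.431) and *1700016P03Rik* (142 UMIs in 40 nuclei, 0.442) were among the most concentrated.

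**Figure D3:**
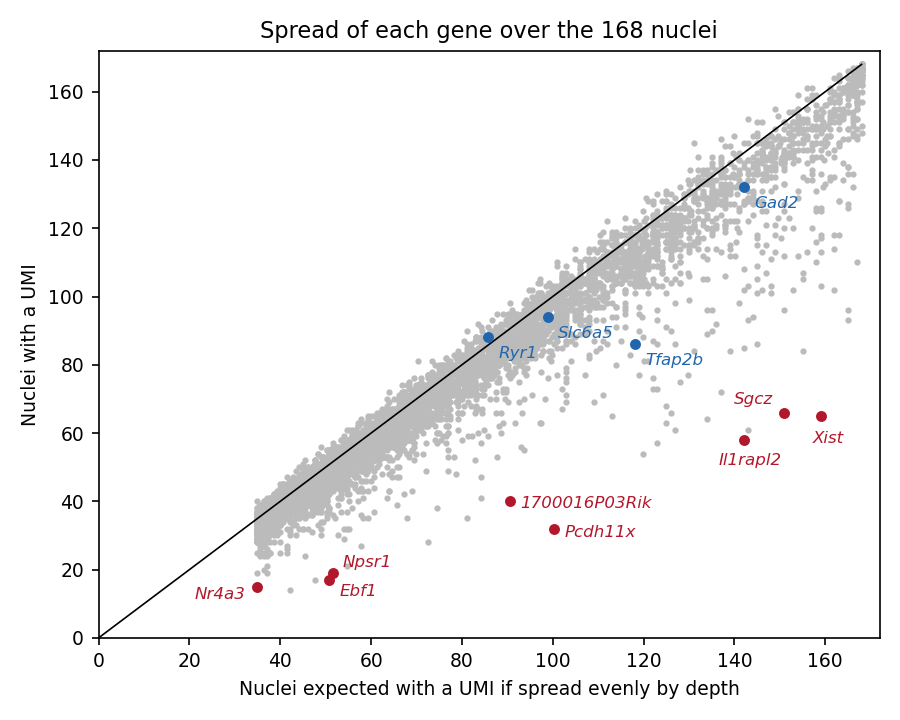
Number of cluster 41 nuclei with a UMI of a gene (vertical) against the number expected if its UMIs were spread by depth (horizontal), for the 6276 genes with at least 40 UMIs. The line marks equality. *Ryr1*, *Gad2* and *Slc6a5* (blue) lie near it, while *Pcdh11x*, *Ebf1*, *Npsr1* and the other genes in red lie well below.

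By its whole profile, the 3 clusters most like cluster 41 all expressed *Gad2*. Over 12115 genes, Pearson's r of log2(CPM + 5) was 0.938 with cluster 120, Tfap2b/Trhde (77 nuclei), 0.934 with cluster 83, Agtr1b/Cntnap5b (113 nuclei), and 0.932 with cluster 58, Adarb2/Lama1 (147 nuclei), among 119 clusters compared. These values are across genes of the same libraries and are close to each other. Of the 10 most similar clusters 9 had *Gad2* at 185 to 287 CPM and *Slc17a6* under 10 CPM, and cluster 45, Prdm16/Zfp804b, 6th with 0.928, had *Slc17a6* at 194 CPM and *Gad2* at 7.60 CPM. The clusters that share *Tfap2b* were not all near. Cluster 95, Tfap2b/Esr1, came 10th (0.925), and clusters 70 and 86 came 39th and 40th (0.912 for both). Cluster 70 is of another kind by its transmitter genes, with *Slc17a6* at 162 CPM and *Gad2* at 27.5 CPM.

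Cluster 120 shared *Tfap2b* (214 ± 21.8 CPM), *Gad2* (185 ± 35.6) and *Slc6a5* (202 ± 80.8) with cluster 41, while *Ryr1* was at 16.2, 31.2, 44.2 and 35.0 CPM, below every cluster 41 library. Of 5661 genes compared, 677 were higher and 651 lower in cluster 41 in all 4 libraries. Those with the largest ratio were *Ldb2*, a cofactor of LIM proteins (117 ± 26.3 CPM against 6.58), the glypican *Gpc5* (725 ± 326 against 57.0), *Gm20713* (176 ± 74.8 against 20.8, in 3 of 4 libraries), *Tmem200a* (51.5 ± 35.6 CPM against no UMI in 77 nuclei, which allows up to 3.9% of nuclei with a UMI) and *Vwa5b1*, with 1 UMI in cluster 120 and a level 34.2 times as high in cluster 41 (exact 95% counting interval 5.95 to 1368). Lower in cluster 41 were *Adarb2* (22.1 ± 11.7 CPM against 239), *Megf11* (10.8 ± 8.95 against 98.6), *Dach1* (13.0 ± 4.84 against 129), *Adamts3* (33.2 ± 29.6 against 190.2) and *Vwc2l* (17.6 ± 9.24 against 105).

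Against cluster 83, 835 of 5831 genes were higher and 796 lower in all 4 libraries. *Erbb4* (3799.7 ± 219 CPM against 83.8), *Meis2* (474 ± 52.8 against 15.5), *Tfap2b* (against 2.56) and *Il1rapl2* (283 ± 60.5 against 17.7) led, and *Gm43154* had no UMI in 113 nuclei of cluster 83, which allows up to 2.65% of nuclei with a UMI. *Ndst4*, a heparan sulphate enzyme (6.21 ± 5.60 CPM against 289), the neurexophilin *Nxph1* (55.0 ± 19.2 against 1264), *Cpne4* (3.45 ± 2.36 against 172), *Gm32647* (97.7 ± 56.1 against 1592) and *Cacna2d3* (69.3 ± 37.7 against 1058) were lower. *Cacna2d3*, like *Cacna2d1*, encodes an alpha2delta subunit of calcium channels, and other neurons had it at 531 CPM. Against cluster 58, 1033 of 5537 genes were higher and 636 lower. *Gm28905* (477 ± 37.9 CPM against 18.4), *Tafa1* (487 ± 100.4 against 24.3), *Erbb4* (against 219) and the netrin receptor *Unc5d* (1349.5 ± 146 against 86) led, and *4930598N05Rik* had 1 UMI in cluster 58 and a level 94.3 times as high in cluster 41 (16.6 to 3759). *Adarb2* was at 22.1 CPM against 2426 ± 240.4, *Maf* at 4.08 ± 4.96 against 177, *Cpne4* at 3.45 against 149.8 and *Pex5l* at 53.8 ± 28.2 against 865. *4930419G24Rik* (27.0 ± 21.1 against 426) lies on the strand opposite *Pex5l*.

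Cluster 41 took a larger share of neurons in the AgRP-Gq;POMC-Gi libraries, but the difference did not pass the test. It held 22 of 2470, 23 of 2736, 65 of 3696 and 58 of 3637 neurons. These are 0.891% (exact 95% interval 0.559 to 1.35%), 0.841% (0.534 to 1.26%), 1.76% (1.36 to 2.24%) and 1.59% (1.21 to 2.06%), where intervals cover counting error only. The groups did not overlap, and the ratio of their mean shares was 1.94. 10 of the other 119 clusters compared had a larger ratio, and 29 of 120 clusters (24.2%) were higher in both AgRP-Gq;POMC-Gi libraries. In edgeR's quasi-likelihood test over 120 clusters the log2 difference was 0.95 ± 0.53 (SE), with an unadjusted p of 0.0736 and an adjusted p of 0.669, ninth by p. No cluster was called (0 of 120, 0%, with 5 at an unadjusted p under 0.05). An exact permutation test of 2 against 2 libraries cannot go below p = 0.333. As a share of all kept nuclei the log2 difference was 1.45 (edgeR, unadjusted p of 0.00628, adjusted p = 0.158), but neurons themselves made up 25.4% and 27.2% of control nuclei and 38.0% and 36.5% of AgRP-Gq;POMC-Gi nuclei. The log2 difference of 0.95 has neurons as its denominator, so this fraction enters only the value of 1.45. More nuclei captured cannot be told apart from more cells.

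**Figure D4:**
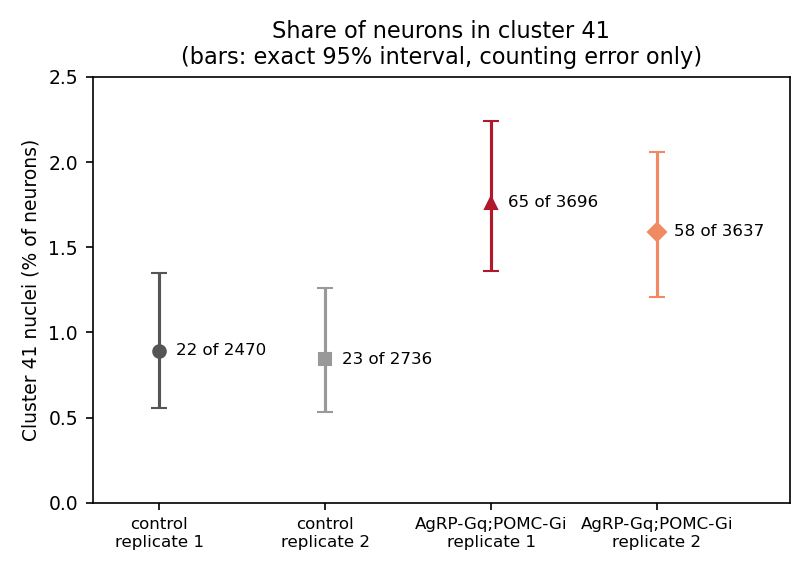
Cluster 41 nuclei as a percentage of the neurons of each library, with exact 95% intervals that cover counting error only and the numbers of nuclei beside each point. Both AgRP-Gq;POMC-Gi libraries (1.76% and 1.59%) lie above both control libraries (0.891% and 0.841%).

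Within cluster 41 no gene passed the test between the groups as planned, while some alternatives called up to 6. edgeR's quasi-likelihood test called 0 of 11562 genes (0%) at an adjusted p under 0.05, with 584 (5.05%) at an unadjusted p under 0.05, 317 higher and 267 lower in AgRP-Gq;POMC-Gi. DESeq2 also called 0, with 63 at an unadjusted p under 0.05. *Ryr1* (log2 difference 0.42 ± 0.32 SE) and *Tfap2b* (0.11 ± 0.24) did not pass, and their libraries overlapped between groups. Without the filter on genes, 4 passed (edgeR, *Pam* with an adjusted p of 0.00998, *Rbms3* 0.0131, *Malat1* 0.0144 and *Ghr* 0.0288). The genes of lowest unadjusted p are given as values. *Pam*, which amidates peptides, was at 101, 127, 304 and 195 CPM (log2 difference 1.18 ± 0.27, adjusted p = 0.613), the growth hormone receptor *Ghr* at 65.5, 83.2, 132 and 205 CPM (1.22 ± 0.30), the RNA-binding protein *Rbms3* at 373, 636, 827 and 917 CPM (0.83 ± 0.21), *Msmo1*, of cholesterol synthesis, at 20.2, 9.79, 67.8 and 58.1 CPM (2.11 ± 0.52) and the nuclear RNA *Malat1* at 42377, 35628, 58436 and 48149.6 CPM (0.50 ± 0.13, and 0.35 ± 0.15 in other neurons). Mitochondrial transcripts, which come from outside the nucleus, had medians of 0.162%, 0.170%, 0.118% and 0.133% of a nucleus's UMIs, lower in both AgRP-Gq;POMC-Gi libraries, and their part in these values was not tested. Other neurons had lower medians in each library (0.105%, 0.123%, 0.0653% and 0.0928%). Of the *Ghr* UMIs of AgRP-Gq;POMC-Gi replicate 2, 27 of 99 came from 1 nucleus, and without the nuclei of highest depth its log2 difference was 0.55. After thinning to 2000 UMIs the log2 difference was 1.38 for *Msmo1*, 1.16 for *Ghr*, 1.36 for *Pam*, 1.01 for *Rbms3* and 0.70 for *Malat1*. That of *Rbms3* was 0.49 without control replicate 1 and 1.29 without control replicate 2. *4930586N03Rik*, antisense to *Zfp322a*, had 0, 1, 18 and 16 UMIs, a ratio of 13.7 with an exact 95% counting interval of 2.30 to 558. With 1 library left out its log2 difference was 2.76 to 6.79, the upper value against a control library at 0. In each of these 6 genes of lowest p both AgRP-Gq;POMC-Gi libraries lay above both control libraries. Their choice by p between the same libraries largely fixed this, so it adds no support. Among all genes 1913 of 11562 (16.5%) lay so.

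In the other direction, *Prlr*, the prolactin receptor, had 6, 7, 2 and 0 UMIs, a ratio of 0.0621 (exact 95% counting interval 0.00680 to 0.274). With 1 library left out its log2 difference was -6.26 to -2.85, the lower value with the AgRP-Gq;POMC-Gi library at 0 alone in its group. *Fam149b* was at 106, 152, 48.4 and 51.9 CPM (log2 difference -1.31 ± 0.31), the ribosomal protein gene *Rps3a1* at 80.6, 113, 34.9 and 29.1 CPM (-1.53 ± 0.37), *Ofcc1* at 70.5, 73.4, 25.2 and 14.5 CPM (-1.78 ± 0.44) and the imprinted gene *Snrpn* at 292, 387, 201 and 168 CPM (-0.82 ± 0.22). After thinning to 2000 UMIs the differences were -0.66 for *Fam149b*, -0.75 for *Rps3a1* and -0.84 for *Ofcc1*, but -1.30 for *Snrpn*. The summed oligodendrocyte genes given above were also lower in both AgRP-Gq;POMC-Gi libraries, and their part in these differences was not tested. None of these genes passed (adjusted p of 0.613 to 0.732, edgeR). The differences of cluster 41 from other neurons in this respect were tested directly by the interaction, and 0 of 11562 genes (0%) passed, with 520 at an unadjusted p under 0.05 in edgeR and 146 in DESeq2, which also called 0.

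The sum of the 10 IEGs that the study used as its core set was above that of other neurons in 3 of 4 libraries of cluster 41. It was 262, 152, 554 and 299 CPM in the cluster and 158, 153, 149 and 193 CPM in other neurons, so control replicate 2 was level with other neurons and AgRP-Gq;POMC-Gi replicate 1 far above. The median log2 ratio of the 10 to other neurons was 0.78. Of the 10, 2 were higher in each library (*Nr4a3* and *Jun*), near the 18.4% of all genes. Per its methods, the study took IEGs out of the variable genes on which the embedding and clusters rest.

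Between the groups none of the 10 IEGs passed the test. All 10 had a positive log2 difference, against 51.0% of all genes, with a median of 0.92. In other neurons 8 of the 10 were positive too, with *Gem* at 0.58 ± 0.21, *Nr4a3* at 0.52 ± 0.27, *1700016P03Rik* at 0.50 ± 0.15, *Fos* at 0.34 ± 0.22 and *Btg1* at 0.27 ± 0.09, and none passed the interaction. In cluster 41, 3 had an unadjusted p under 0.05, against 2.74% of all genes in this direction. 5 of them (*Fosl2*, *Homer1*, *Gem*, *Btg1* and *1700016P03Rik*) were higher in both AgRP-Gq;POMC-Gi libraries than in both control libraries, against 16.5% of all genes. *Homer1*, whose activity-induced short form uncouples scaffolds at excitatory synapses, was at 35.3, 78.3, 126 and 104 CPM, a log2 difference of 1.06 ± 0.34 (edgeR, unadjusted p of 0.00530, adjusted p = 0.926). Of the 65 UMIs of AgRP-Gq;POMC-Gi replicate 1, 16 came from 1 nucleus, and the short form is not told apart from the long one here. In other neurons the log2 difference was 0.05 ± 0.09, and the difference between the 2 was 1.02 ± 0.37 (interaction, edgeR, unadjusted p of 0.0130, adjusted p = 0.997). *Gem*, a small GTPase that inhibits calcium channels, had 2, 0, 12 and 8 UMIs, a ratio of 4.04 with an exact 95% counting interval of 0.980 to 35.6, and *Fosl2* had 2, 0, 6 and 6 UMIs, a ratio of 2.42 (0.539 to 22.3). Without control replicate 2 the log2 difference of *Gem* was 1.03 and that of *Fosl2* 0.31, and without control replicate 1 that of *Homer1* was 0.59. *Btg1*, an antiproliferative factor, was at 15.1, 14.7, 23.2 and 27.0 CPM (0.79 ± 0.62). *Fos* itself was at 35.3, 0, 29.1 and 16.6 CPM (0.45 ± 0.74), so that control replicate 1 was the highest library, with 6 of its 7 UMIs in 1 nucleus, and the groups overlapped. *Nr4a3* was at 15.1, 4.89, 63.9 and 6.23 CPM (1.87 ± 1.08), and 19 of the 33 UMIs of AgRP-Gq;POMC-Gi replicate 1 came from 1 nucleus. *Nr4a1* (0.68 ± 0.66), *Jun* (0.38 ± 0.58) and *Junb* (0.13 ± 0.67) overlapped between groups. The sign of the differences of *Fos*, *Nr4a3*, *Nr4a1* and *Junb* turned when a library was left out.

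**Figure D5:**
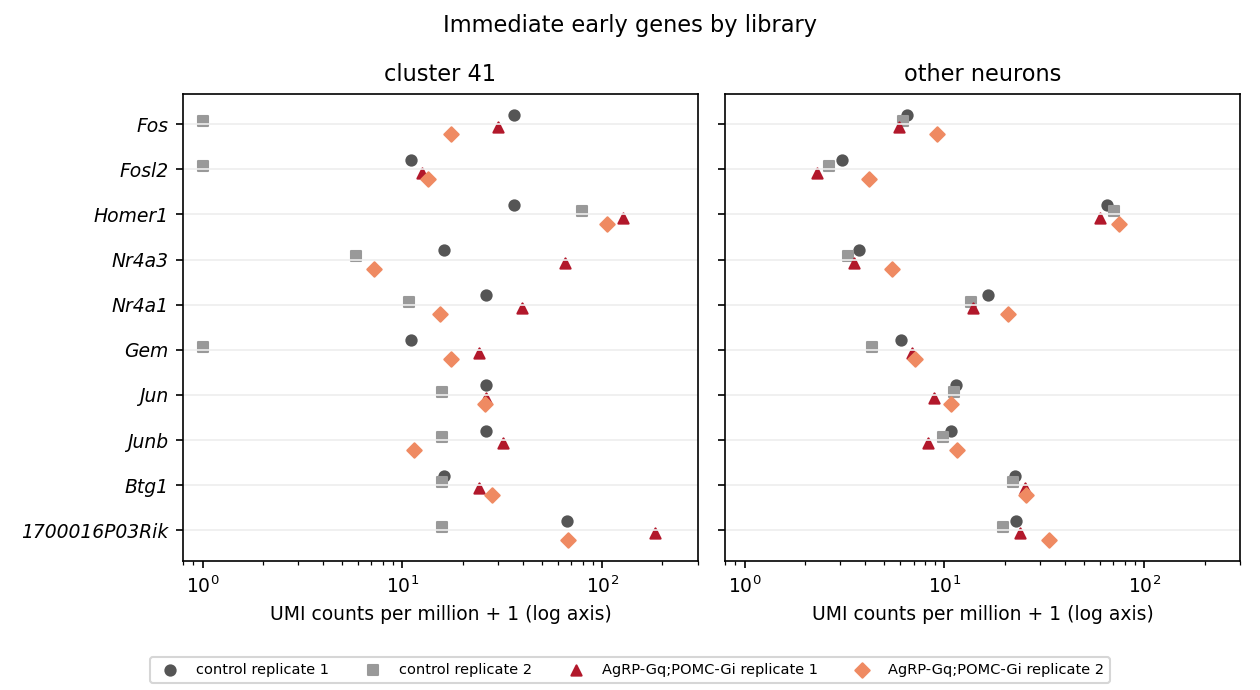
CPM plus 1 on a log axis of the 10 IEGs in cluster 41 (left) and in other neurons (right), with 1 symbol per library. In cluster 41 the libraries lie far apart and control replicate 2 is at 0 for *Fos*, *Fosl2* and *Gem*, while in other neurons the 4 libraries lie close together.

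The IEG *1700016P03Rik* is a noncoding transcript that hosts a pair of microRNAs. It was at 65.5, 14.7, 182 and 66.4 CPM, from 13, 3, 94 and 32 UMIs, against 24 CPM in other neurons. The log2 difference between groups was 1.71 ± 0.73 (edgeR, unadjusted p of 0.0494, adjusted p = 0.960), and AgRP-Gq;POMC-Gi replicate 2 lay above control replicate 1 by less than 1 CPM. Blocked on replicate number it passed (1.71 ± 0.37, edgeR, adjusted p = 0.0240), and without control replicate 1 it passed with 3.11 (adjusted p = 0.000608), whereas without AgRP-Gq;POMC-Gi replicate 1 the difference was 0.75 (adjusted p = 0.996). The gene lies on chromosome 11 (GRCm38, 75172560 to 75177633, plus strand) and contains, on the same strand, *Mir212* and *Mir132*, whose 3p forms are known for their induction by activity through CREB. The mature microRNAs were not measured here. Their sequences are shown because they share their seed, bases 2 to 8 in capitals, and so the same predicted pairing with targets (RefSeq, GRCm38.p6, plus strand, at chr11:75173443-75173464 for miR-212-3p and chr11:75173723-75173744 for miR-132-3p).
miR-212-3p: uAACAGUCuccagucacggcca
miR-132-3p: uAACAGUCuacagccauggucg

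Most IEG UMIs sat in a minority of the nuclei, although most nuclei had at least 1. Of the 168 nuclei, 48 had no UMI of the 10 IEGs, 52 had 1 of these genes, 39 had 2 and 29 (17.3%) had 3 or more. These 29 held 347 of the 513 IEG UMIs (67.6%). Their median depth was 8843 UMIs against 7069 in the other nuclei, so depth moved with this count, and its part in it was not tested. *1700016P03Rik* was found in 24 of the 29 and in 16 of the other 139, *Nr4a3* in 13 and 2, *Nr4a1* in 18 and 6 and *Fos* in 13 and 5, whereas *Btg1* was found in 8 and 20. The number of genes chose these nuclei, so the shares describe how the IEGs coincide.

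Nuclei with 3 or more IEGs occurred in both groups, as 4 of 22, 1 of 23, 14 of 65 and 10 of 58 nuclei (18.2%, 4.35%, 21.5% and 17.2%). In other neurons the shares were 10.5%, 9.14%, 7.79% and 11.7%. In oligodendrocytes, at a median of 2460.0 UMIs against 7538 in the cluster, the share was 0.0714%. After thinning to 2000 UMIs the shares were 4.55%, 0%, 11.5% and 1.72% in the cluster, from 1, 0, 7 and 1 nuclei. In other neurons they were then 0.539%, 0.560%, 0.923% and 1.27%. Oligodendrocytes were not thinned, so their share is not at equal depth. The groups overlapped before and after thinning. Of 30 other activity genes 11 were detected, with a median log2 ratio to other neurons of 0.44. In each library 5 were higher and 1 lower, against 18.4% and 10.8% of all genes. *Npas4*, an activity factor of inhibitory and excitatory synapses, was at 25.2, 24.5, 23.2 and 20.8 CPM (23.4 ± 1.95) against 7.88, with little difference between groups. *Crem* was at 40.3, 34.3, 83.3 and 58.1 CPM against 28.9 and *Per1* at 5.04, 14.7, 48.4 and 22.8 CPM against 9.07. *Egr1* had 0, 0, 19 and 2 UMIs. None passed the test between groups, and the median log2 difference of the 11 was -0.01. Of the 11, 3 were higher at an unadjusted p under 0.05 and 4 were higher in both AgRP-Gq;POMC-Gi libraries than in both control libraries, against 2.74% and 16.5% of all genes. In the other direction 3 of the 11 lay below both control libraries, as 2188 of 11562 genes did. Of 15 genes induced by glucocorticoids 7 were detected, with a median log2 ratio to other neurons of 0.03 and a median log2 difference between groups of -0.15, and *Zbtb16* was higher than in other neurons in each library.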

How the data were processed

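The data are 4 single-nucleus libraries of hindbrain tissue, 2 per group. The authors prepared them with the 10x Genomics 3′ kit, and per the submitters' processing notes used Cell Ranger 7.0.0 and Seurat 4.3.0 with GRCm38 (mm10). They deposited UMI counts per gene and barcode for each library, not normalized, and a table of nuclei with cluster, cell type, quality call and mitochondrial percent. The authors describe removal of low-quality barcodes and detection of doublets before clustering, and no doublet caller was run here. UMI totals computed from the counts equal those of that table in 44303 of 44303 barcodes. The joined matrix and the IEG score per cluster, which holds the authors' own comparison, were not used. 0 columns of per-sample values were left unmapped.

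UMIs of 32285 genes were summed per library and cluster. The groups were compared with edgeR 4.0.16 (TMM factors, quasi-likelihood test) in R 4.3.3, over genes seen in 5% or more of the cluster 41 nuclei, with Benjamini-Hochberg adjustment. The interaction with other neurons had library as a block, and shares of nuclei were tested over clusters that had 5 or more nuclei in every library. DESeq2, no TMM, other filters, the replicate block, thinning to 2000 UMIs and each library left out were the alternatives. nebula, the authors' mixed model, was not used here. Scripts were tested on simulated data. Gene positions and overlaps are from the GRCm38 annotation, matched by identifier for 32158 of 32285 genes.

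Named are the 20 genes with the largest and the 6 with the lowest log2 ratio of (CPM + 5) to other neurons, members of gene lists by ratio and level, the 10 IEGs, 6 genes per direction of lowest p between groups, and 5 genes per direction against each of the 3 most similar clusters. Some genes that this rule names are not reported here. The genes in the account of spread over nuclei and the combinations of IEGs per nucleus were chosen after their values were seen. The cluster and the gene lists were chosen with earlier results of these data known. Intervals and limits for a count of 0 (3 counts) cover counting error only.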

Additional observations from a re-analysis of the deposited data

How the results depend on the processing

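With the replicate number as a block, the test between groups called 4 genes, *Pam*, *Rbms3* and *1700016P03Rik* higher (1 of the 10 IEGs) and *Xist* lower, against 0 without it, and the share of neurons stayed at 0.95 (edgeR, adjusted p = 0.942). The labels give the replicates a shared number and no more, so the sex of the mice of each library, on which *Xist* depends, is not given. The deviations of same-numbered libraries correlated at 0.0377 over 11562 genes, although *Ttr* was high in both replicates numbered 2. Without a filter on genes 4 were called, all higher (*Pam*, *Rbms3*, *Ghr* and *Malat1*). DESeq2, no TMM factors, filterByExpr, detection in 10% of nuclei, thinning and leaving out the deepest nuclei called 0. Leaving out 1 library gave 0 to 6 calls between groups, 0 to 9 for the interaction and 0 to 1 among IEGs, where the lone library of a group is assumed to vary like the others. Without control replicate 1 the 2 calls were *1700016P03Rik* higher and *Ttr* lower, and without control replicate 2 the 6 were *Galntl6*, *Rbms3*, *Gpc5*, *Gm20713*, *Shisa9* and *Dcc*, all higher. The interaction had 9 calls (1 higher, 8 lower) without control replicate 1 and 2 (*Gpc5* and *Dcc*) without control replicate 2. The log2 difference in share was 0.88 to 1.02 with 1 library left out. The causes were not tested. Without AgRP-Gq;POMC-Gi replicate 1, *Fos* was at -0.05, *Nr4a3* at -0.62, *Nr4a1* at -0.24 and *Junb* at -0.89, and without control replicate 2 *Fos* was at -0.54 and *Junb* at -0.19. With 1 library left out the ranges were -0.54 to 6.23 for *Fos* (the upper value against a control library at 0), -0.62 to 2.84 for *Nr4a3*, -0.24 to 1.48 for *Nr4a1*, -0.89 to 0.72 for *Junb*, 1.03 to 6.03 for *Gem* and 0.31 to 5.31 for *Fosl2* (both upper values likewise against 0), and 0.59 to 1.76 for *Homer1*. The log2 ratio to other neurons stayed at 2.81 to 3.05 for *Ryr1* and 2.29 to 2.81 for *Tfap2b*. At 22 and 23 control nuclei, IEGs rest on 0 to 16 UMIs per control library.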
